A study of Mus musculus with 6 samples.

Results

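NF-κB is the family of transcription factors through which immune cells answer cytokines, pathogens and cell damage. Its genes were examined in microglia (the macrophage-like immune cells that reside in brain tissue) of mice whose mothers had been fed a low sodium diet early in pregnancy. The genes were chosen by name and matched to the Ensembl identifiers of the deposited table. They number 10 of the 26789 genes listed, and comprise the 5 subunits (Rela, Relb, Rel, Nfkb1 and Nfkb2) and the kinase gene Ikbkb. The rest, Nfkbia, Nfkbib, Tnfaip3 and Nfkbiz, are grouped here as inhibitors, the last by its family membership. All 10 passed the filter on low values (a mean of at least 10 normalized counts).

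The E3–E12 diet group was the offspring of dams given the sodium-restricted diet, with distilled water, from embryonic day 3 to 12 and returned to standard chow afterward. Control mice were raised on standard chow throughout. The labels name only a control and a low sodium maternal diet, and the study's methods give the window, the age of P15 and the source of each library, which was the rostral nucleus of the solitary tract (NST) pooled from 6 littermates, so that 1 library stands for 1 litter. There were 3 libraries per group, male and female mice were used, and neither labels nor methods give the strain of these litters separately or any transgene. The methods describe selection of CD11b+ cells with magnetic beads, whereas the deposited description names laser microdissection, so the isolation method is uncertain. The methods also report flow cytometry in which the selected fraction was mostly positive for CD45 and CD11b. The methods and the deposited description differ further in the RNA kit, the library kit and the read length.

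In resting cells NF-κB dimers are held in the cytoplasm by inhibitor (IκB) proteins. The IκB kinase, of which Ikbkb encodes the beta catalytic subunit, marks these inhibitors for destruction and frees the dimers to enter the nucleus. NF-κB then induces several of its own inhibitors, among them Nfkbia and Tnfaip3, which closes a negative feedback loop. In microglia the pathway is best known for driving Tnf and other inflammatory mediators.

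To show the letters at the start of these genes, the 250 bases before the annotated start site were searched on both strands for the κB consensus, the 10-base sequence that NF-κB dimers recognize. RefSeq promoter windows (GRCm38.p6) were at hand for 6 of the 10 genes, and 4 of these (Nfkbia, Tnfaip3, Rel and Nfkb2) held at least 1 match. Across all 27025 genes with windows the share was 8.23%. The windows of Rela and Nfkbib held none, and Nfkb1, Relb, Nfkbiz and Ikbkb had no window. The consensus can match both strands at one place, and such overlapping matches were counted as 1 site. A match describes the letters and shows no binding. The Nfkbia window is given whole because Nfkbia is the 1 gene of the 10 whose groups did not overlap, and the sites of the others are given with their flanks. Capitals mark the matches, all written 5′ to 3′ on the strand of the gene. They lie at chr12:55492648-55492897 (minus strand) for Nfkbia, chr10:19015518-19015543 and chr10:19015411-19015430 (minus strand) for Tnfaip3, chr11:23771043-23771069 (minus strand) for Rel, and chr19:46304690-46304716, chr19:46304718-46304736, chr19:46305451-46305476 and chr19:46305697-46305722 (plus strand) for Nfkb2. The sites of Nfkb2 lay in 3 windows of alternative start sites, sites 1 and 2 in the first and 1 site in each of the others, and all 3 windows overlap annotated exons.
Nfkbia: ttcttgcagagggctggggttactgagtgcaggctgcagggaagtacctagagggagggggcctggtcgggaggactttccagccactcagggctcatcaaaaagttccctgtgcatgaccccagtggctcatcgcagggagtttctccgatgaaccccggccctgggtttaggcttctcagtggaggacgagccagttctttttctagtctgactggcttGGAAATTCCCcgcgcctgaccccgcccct
Tnfaip3 site 1: ctcacgcgGGGACACCCCggggcggg
Tnfaip3 site 2: tttccatcGGAAATCCCCct
Rel: taagcagcGGGAAATCCCCccccctcc
Nfkb2 site 1: atcgtcacGGGAATTCCCCccctcggg
Nfkb2 site 2: ggccgaaaGGGGCTTTCCc
Nfkb2 site 3: cgacggcaGGAATGTCCCcacaaaag
Nfkb2 site 4: gtattttcGGGACTTTCCtaagcagc

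The libraries differed widely before any diet comparison. Their normalized counts summed to between 9407141 and 17204620, with 3459 to 10640 genes listed at 0, the most in control replicate 2. The summed level of 15 microglial markers ran from 111290 to 550250 in controls and from 108450 to 338440 in E3–E12 diet mice, with replicate 1 of each group lowest. Of these markers, Cx3cr1, Csf1r and P2ry12 were present in every library, but Tyrobp was listed at 0 in all 3 E3–E12 diet libraries. The summed level of 8 endothelial markers was lowest in control replicate 2 (5262 against at least 9139 in every other library), and that of 7 border-associated macrophage markers was highest there (21060 against at most 9847). Neutrophil markers also had their highest sum there (3395.5 against at most 649). Summed choroid plexus markers ran from 572 to 18942 in controls and from 58.0 to 40082 in E3–E12 diet mice. For oligodendrocyte markers these ranges were 4439 to 33143 and 5265 to 19947. In mean log2 level, 0 of the 15 microglial, 5 of the 8 endothelial and 7 of 7 astrocyte markers were higher in E3–E12 diet mice. The summed astrocyte markers ran from 1738 to 9132 in controls and from 4723 to 9725 in E3–E12 diet mice, and their part in the results was not tested. In bulk libraries of this kind, fewer cells of a type and less RNA per cell cannot be told apart. The NF-κB genes varied less between libraries than most genes tested. Each was above 0 in all 6 libraries, as were 80.1% of the 18007 genes tested, and the highest library lay less than 5-fold above the lowest in each of the 10, against 38.4% of all genes. This comparison was not matched for level. The genes tested reach down to a mean of 10 normalized counts, whereas the lowest group mean among the 10 was 282 (Relb, controls).

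Per kilobase of annotated exon, Nfkbia had the highest level, a mean of 2020.0 normalized counts per kb over the 6 libraries (range 943 to 3127). Rel followed at 1092 (range 499.8 to 1542), Tnfaip3 at 1003 (698 to 1465) and Nfkbiz at 876 (542 to 1393). Rela (551), Nfkbib (475) and Nfkb2 (range 119 to 309.6) were intermediate, and Ikbkb (120.5), Nfkb1 (112) and Relb (78.8) were lowest, all in normalized counts per kb. The ranges of neighbours in this order overlapped in 9 of 9 neighbouring pairs, so only genes far apart in the order were separated. Among the subunits, every library of Rel was above every library of Nfkb1, Nfkb2 and Relb on this scale. The deposited scaling is not known to be the same for every gene, so levels of different genes may not be comparable. Exon length was the union over all annotated transcripts (1610 bases for Nfkbia and 19078 for Ikbkb), which lowers the level of genes with long alternative transcripts.

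No NF-κB gene passed the threshold for a difference between E3–E12 diet mice and controls (limma on log2(normalized count + 1), two-sided, Benjamini-Hochberg adjustment over all 18007 genes, threshold 0.1). The count was 0 of 10, the background over all genes was 0%, and each of the 10 had an adjusted p of 0.999 from limma. The study, with DESeq2 and the same threshold of 0.1, called Nfkbia higher from these libraries. It also called Nfkbie, Tnf and Gadd45b, which are treated below. The limma fit to the deposited values called none of these genes, and the reason for the difference was not tested. At an unadjusted p under 0.05 there were also 0 of 10, where 1.82% of all genes passed. One gene, Nfkbia, separated the groups without overlap, with all 3 E3–E12 diet libraries above all 3 controls. Groups did not overlap in 5.9% of all genes tested, higher with the diet in 2.99%, and no NF-κB gene was lower throughout. By mean log2 level, 9 of the 10 were higher in E3–E12 diet mice, against 54.4% of all genes, and their median log2 fold change was 0.29, against 0.087 over all genes. These genes share libraries and pathways and are not independent, so no test was made of the list.

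**Figure D1:**
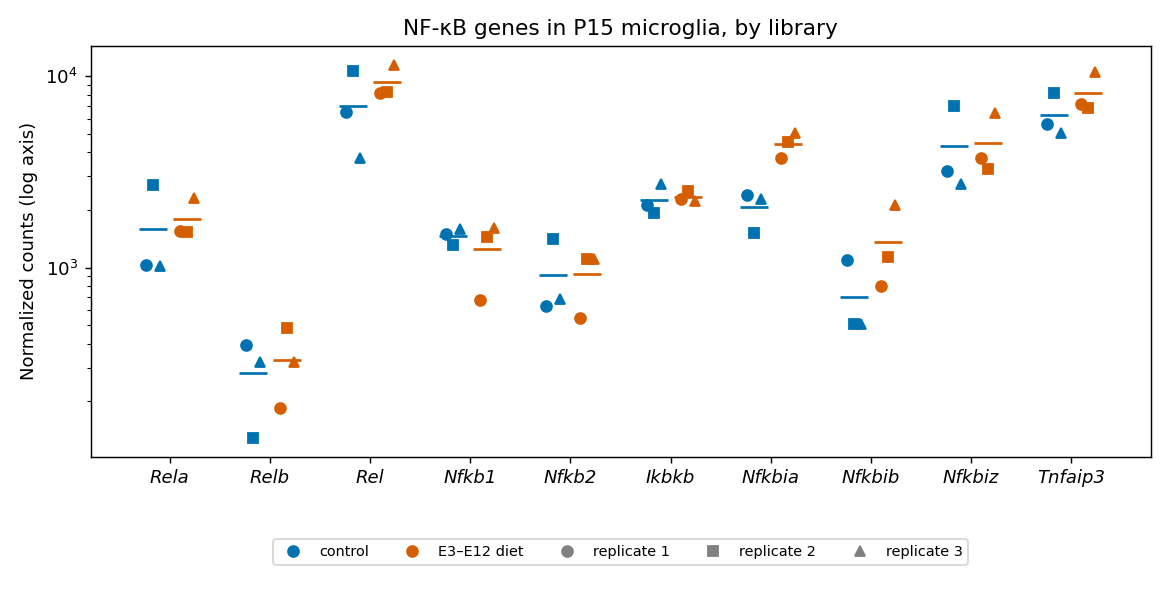
Normalized counts (log axis) of the 10 NF-κB genes in each library, with controls in blue and E3–E12 diet mice in orange, marker shape giving the replicate number and bars the mean of 3 libraries. Nfkbia is the gene in which all 3 E3–E12 diet libraries (3734 to 5034) sit above all 3 controls (1519 to 2392).

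Nfkbia (chr12:55489410-55492647, minus strand, GRCm38 as for all positions here) encodes IκBα, the inhibitor that NF-κB induces most directly. It stood at 2392, 1519 and 2284 normalized counts in control replicates 1, 2 and 3, against 3734, 4548 and 5034 for E3–E12 diet replicates 1, 2 and 3. The lowest E3–E12 diet library was thus above the highest control. The means were 4439 ± 657 and 2065 ± 476 (SD, n = 3 libraries each), a 2.15-fold ratio, and the log2 fold change was 1.12 with a standard error of 0.55 and a 95% interval from -0.19 to 2.43. The unadjusted limma p was 0.0818. An exact permutation test, two-sided, gave p = 0.1, the smallest that 3 libraries against 3 allow. Any gene whose groups do not overlap reaches this value, so it restates the separation and adds no further evidence. Both p-values rest on differences between litters in the deposited values, whose normalization is not fully described. The limma p, standard error and interval also draw on the variance of all genes tested, here and for every other gene. They do not measure the spread between the Nfkbia litters alone. The standard error of Nfkbia was smaller than that of most genes, with 2.69% of all genes below it. The study lists Nfkbia among the genes it called higher from these same libraries, so the direction here is not independent evidence.

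With single libraries left out, the log2 fold change of Nfkbia ran from 0.91 (without control replicate 2) to 1.24 (without control replicate 1). The separation did not hold once each library was scaled to the mean log2 level of 14 microglial markers (Tyrobp left out), an alternative chosen after the data were seen. On that scale Nfkbia stood at 4935, 724 and 1696 in control replicates 1, 2 and 3, against 8708, 4187 and 3210.0 for E3–E12 diet replicates 1, 2 and 3, so that control replicate 1 lay within the E3–E12 diet range. The log2 fold change was then 1.42 with a standard error of 1.09, and the median over all genes shifted from 0.087 to 0.38 with the same scaling. The part of microglial content in the Nfkbia difference was not tested beyond these values.

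Nfkbib (chr7:28758251-28767512, minus strand), which encodes the related inhibitor IκBβ, stood at 1101, 506 and 507 normalized counts in control replicates 1, 2 and 3, against 802, 1141 and 2129 for E3–E12 diet replicates 1, 2 and 3. Control replicate 1 overlapped the E3–E12 diet libraries. Its log2 fold change was 0.93 with a standard error of 0.67 (95% interval -0.67 to 2.53), and 0.54 without E3–E12 diet replicate 3. Exons of Ccer2 and Sirt2 on the opposite strand cover 16.4% of its exonic bases, and without strand information reads from these could not be told apart.

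Tnfaip3 (chr10:19000910-19015657, minus strand) encodes A20, a ubiquitin-editing enzyme that switches off signaling upstream of the IκB kinase. It stood at 5625, 8209 and 5046 normalized counts in control replicates 1, 2 and 3, against 7167, 6836 and 10589 for E3–E12 diet replicates 1, 2 and 3. Control replicate 2 fell within the E3–E12 diet range. The log2 fold change was 0.38 with a standard error of 0.56, and 0.19 without E3–E12 diet replicate 3.

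Nfkbiz (chr16:55811375-55838899, minus strand) encodes IκBζ, a nuclear protein that joins p50 on selected promoters rather than holding dimers in the cytoplasm. It stood at 3212, 6991 and 2721 normalized counts in control replicates 1, 2 and 3, against 3748, 3281.5 and 6413 for E3–E12 diet replicates 1, 2 and 3. The highest of all 6 libraries was a control. Its log2 fold change of 0.12 (standard error 0.65) was below 0 when replicate 1 or 3 of the controls or replicate 3 of the E3–E12 diet group was left out. Among the 4 genes grouped as inhibitors the log2 fold changes thus ran from 0.12 for Nfkbiz to 1.12 for Nfkbia, and all 4 intervals included 0.

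**Figure D2:**
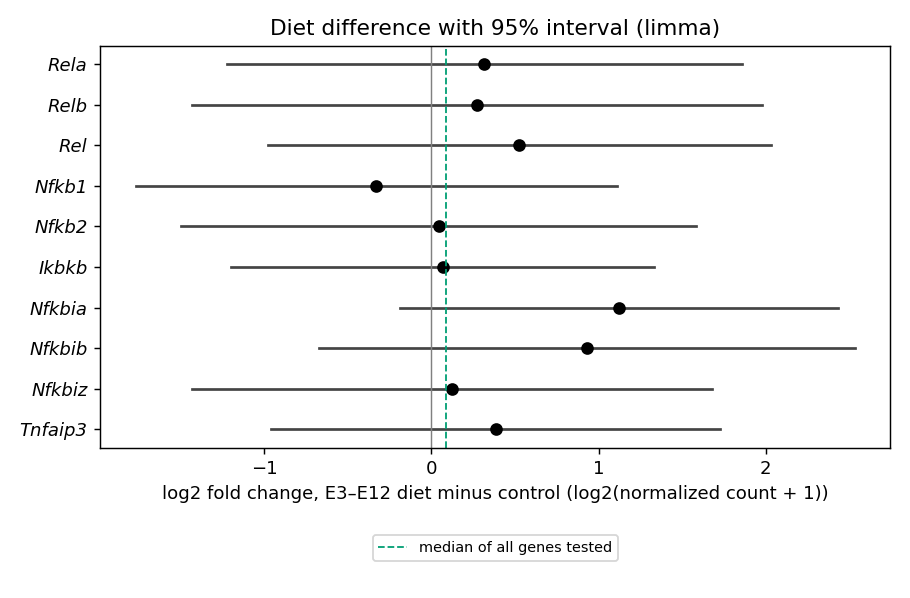
Log2 fold change of each NF-κB gene, E3–E12 diet minus control, on the log2(normalized count + 1) scale, with its 95% interval from limma and a dashed line at the median of all genes tested (0.087). All 10 intervals include 0, and that of Nfkbia (-0.19 to 2.43) reaches least far below it.

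The subunits with transactivation domains are Rela (p65; chr19:5637483-5648130, plus strand), Rel (c-Rel; chr11:23736847-23770970, minus strand) and Relb (chr7:19606217-19629438, minus strand). Rela stood at 1037, 2693 and 1021 normalized counts in control replicates 1, 2 and 3, against 1554, 1539.5 and 2305 for E3–E12 diet replicates 1, 2 and 3. Control replicate 2 was the highest library and the other 2 controls were the lowest. The log2 fold change was 0.32 with a standard error of 0.64, from 0.080 without control replicate 3 to 0.78 without control replicate 2.

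Rel stood at 6546, 10688 and 3732 normalized counts in control replicates 1, 2 and 3, against 8201, 8254 and 11509 for E3–E12 diet replicates 1, 2 and 3. Control replicate 2 lay among the E3–E12 diet libraries while the other 2 controls lay below them. The log2 fold change was 0.53 with a standard error of 0.63, from 0.14 without control replicate 3 to 0.90 without control replicate 2.

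Relb, the partner of p52 in the noncanonical arm of the pathway, had the lowest counts of the 10 genes. It stood at 395, 129 and 321 normalized counts in control replicates 1, 2 and 3, against 185, 484 and 322 for E3–E12 diet replicates 1, 2 and 3. The lowest library was a control and the highest an E3–E12 diet library, with the other 4 between them. The log2 fold change was 0.27 (standard error 0.71), or -0.22 when control replicate 2 was left out and -0.057 when E3–E12 diet replicate 2 was.

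Nfkb1 and Nfkb2 encode the precursors p105 and p100, which act as inhibitors until they are processed to p50 and p52, and lie at chr3:135584655-135691547 (minus strand) and chr19:46304320-46312385 (plus strand). Nfkb1 stood at 1499, 1309 and 1593 normalized counts in control replicates 1, 2 and 3, against 676, 1439.7 and 1618.5 for E3–E12 diet replicates 1, 2 and 3. E3–E12 diet replicate 1 was the 1 low library, and without it the log2 fold change moved from -0.33 (standard error 0.60) to 0.062. Nfkb2 stood at 632, 1419 and 684 normalized counts in control replicates 1, 2 and 3, against 546, 1114 and 1103 for E3–E12 diet replicates 1, 2 and 3. The E3–E12 diet libraries lay entirely within or below the range of the controls, and its log2 fold change was 0.043 (standard error 0.65). Exons on the opposite strand, including those of Psd, cover 18.1% of the exonic bases of Nfkb2.

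Ikbkb, the kinase gene (chr8:22659212-22706589, minus strand), was the steadiest of the 10. It stood at 2115, 1926 and 2729 normalized counts in control replicates 1, 2 and 3, against 2292, 2507 and 2223 for E3–E12 diet replicates 1, 2 and 3. Its highest library was 1.42-fold above its lowest, and 5.12% of all genes stayed within 2-fold. Its log2 fold change was 0.067 with a standard error of 0.53 (95% interval -1.20 to 1.33). That interval includes a 2-fold change in either direction, but it also draws on the variance of all genes tested. It is therefore not the spread of the Ikbkb values alone, whose SDs were 420 normalized counts in controls and 148 in E3–E12 diet mice.

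**Figure D3:**
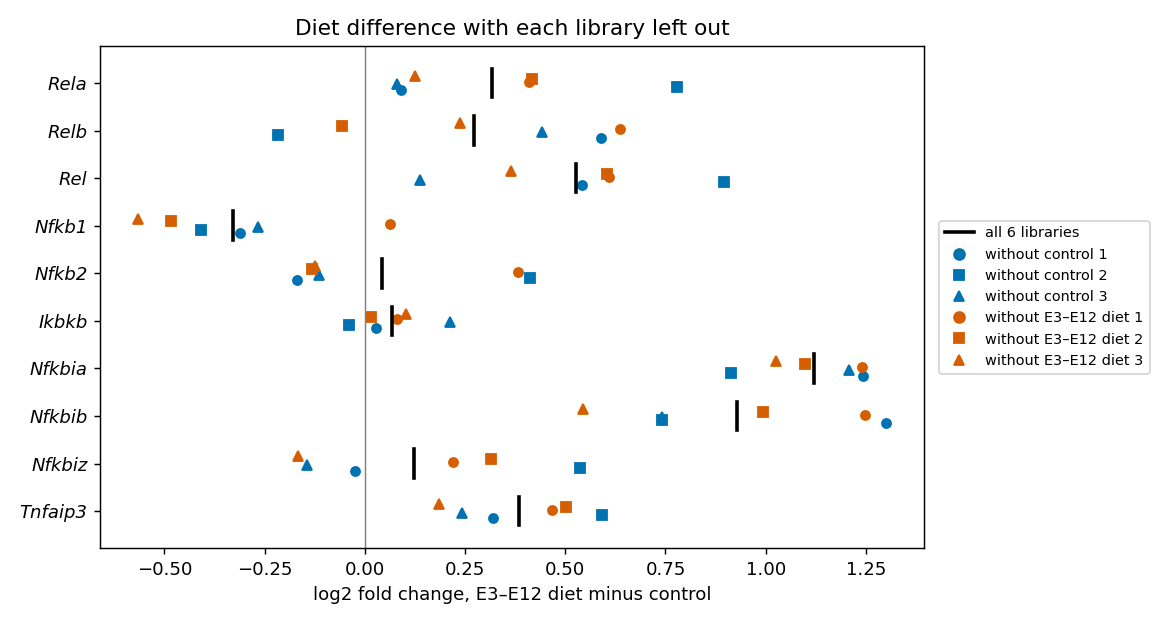
Log2 fold change of each NF-κB gene (E3–E12 diet minus control, log2(normalized count + 1)) with all 6 libraries (black bars) and after leaving out each library singly (points, blue for a control and orange for an E3–E12 diet library). Rela, Rel, Nfkbia, Nfkbib and Tnfaip3 stay above 0 throughout, Nfkbia between 0.91 and 1.24, whereas the other 5 genes cross 0.

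Control replicates 2 and 3 were each the lowest library for 4 of the 10 genes, control replicate 2 was the highest for 3, and E3–E12 diet replicate 3 was the highest for 5. Without control replicate 2, 5 of the 10 genes (Rel, Rela, Nfkbia, Nfkbiz and Tnfaip3) had all 3 E3–E12 diet libraries above both remaining controls, against 6.70% of all genes, and the median log2 fold change of the 10 was 0.56. No gene passed the adjusted threshold in that fit (smallest adjusted p = 0.134 over all genes from limma, 0 genes).

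Over the 6 libraries the log2 levels of Rela and Nfkbiz had a Pearson r of 0.948, and those of Rel and Tnfaip3 one of 0.909. These were the highest of 45 pairs, of which 28 were above 0, with a median r of 0.21. The lowest value, -0.74, was that of Nfkbiz and Ikbkb. The genes whose levels most resembled the mean profile of the 10 were Arid5a (r = 0.983), Dusp5 (r = 0.983), Gm5446 (r = 0.982) and Sfswap (r = 0.978). All of these are descriptions over 6 points that share library depth and composition.

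The wider pathway was read from lists of named genes. Of 26 upstream kinases and adaptors, 0 of the 26 tested passed the adjusted threshold, 9 were higher by mean log2 level in E3–E12 diet mice, and the median log2 fold change was -0.19. Rnf31 and Rbck1, 2 subunits of the linear ubiquitin ligase that carries signals from the TNF receptor, did not overlap between groups. Rnf31 stood at 1133, 602 and 1139 normalized counts in control replicates 1, 2 and 3, against 438, 358 and 560 for E3–E12 diet replicates 1, 2 and 3. The log2 difference was -1.05, with a standard error of 0.58. Rbck1 stood at 1383, 2528.5 and 1391 normalized counts for the controls, against 907, 846 and 1219 (log2 fold change -0.79, standard error 0.57). Sharpin, the remaining subunit, overlapped between groups (log2 fold change -0.51, standard error 0.69). Malt1, a paracaspase, was the 1 gene of this list with all 3 E3–E12 diet libraries above the controls (log2 fold change 0.54), and Rnf31 and Rbck1 were the 2 that were lower. Over all genes tested, 2.99% had all 3 E3–E12 diet libraries above the controls and 2.91% had all 3 below. Ripk1, a kinase of the TNF receptor complex, had 837 ± 357 normalized counts in controls and 429 ± 152 in E3–E12 diet mice, and the groups overlapped. Ikbke and Tbk1, the IκB kinase relatives, had log2 fold changes of 1.47 (standard error 0.86) and -1.10 (0.87), also with overlap. With 1 library left out these ran from 0.85 (without control replicate 3) to 2.26 (without control replicate 1) for Ikbke, and from -1.76 (without E3–E12 diet replicate 2) to -0.39 (without E3–E12 diet replicate 3) for Tbk1. Without control replicate 2 the log2 fold change was -0.62 for Ripk1, in place of -0.94, and -0.50 for Rbck1.

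Of 22 other inhibitors and negative regulators, 20 were tested, 0 passed the adjusted threshold and 7 were higher in mean log2 level, with a median log2 fold change of -0.30. Bcl3, an IκB relative that acts in the nucleus with p50 and p52, stood at 78.5, 62.4 and 71.9 normalized counts in control replicates 1, 2 and 3, against 191, 90.9 and 231 for E3–E12 diet replicates 1, 2 and 3, without overlap (log2 fold change 1.16, standard error 0.61). Tax1bp1, an A20 partner, had all 3 E3–E12 diet libraries below the controls (log2 fold change -0.59). Of the 20 tested, Bcl3 was the 1 gene higher without overlap and Tax1bp1 the 1 gene lower. Over all genes tested, 2.99% were higher and 2.91% lower without overlap. Nfkbid, another nuclear IκB, had 1138 ± 410 normalized counts in controls and 2120.0 ± 1003 in E3–E12 diet mice with overlap, and Cyld, a deubiquitinase, had 289 ± 86.4 and 125 ± 90.1. Without E3–E12 diet replicate 3 the log2 fold change of Nfkbid was 0.50 in place of 0.86, and without E3–E12 diet replicate 2 that of Cyld was -0.74 in place of -1.51. Nlrc3 had a log2 fold change of 1.12, with overlap, and between 0.65 (without E3–E12 diet replicate 2) and 1.89 (without E3–E12 diet replicate 3) with 1 library left out. Nfkbil1 had one of -1.30, also with overlap, which was -0.24 without control replicate 2. Nfkbie, which encodes IκBε and which the study lists as higher beside Nfkbia, ran between 334 and 3433 normalized counts among E3–E12 diet litters. Its log2 fold change of 0.42 had a standard error of 1.06 and was -0.51 without E3–E12 diet replicate 3 and -0.042 without control replicate 1, so its direction depended on single libraries.

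Of 36 textbook target genes, 34 were tested and 24 were higher in mean log2 level in E3–E12 diet mice, with a median log2 fold change of 0.18. None passed the adjusted threshold (0 of 34, limma), and 2 had an unadjusted p under 0.05, where 0.95% of all genes did so in this direction. These were Tnf (unadjusted p = 0.0482, limma) and Cxcl1 (unadjusted p = 0.0467, limma). With 1 library left out, this level was still reached for Tnf only without E3–E12 diet replicate 2 (unadjusted p = 0.0485, limma) and for Cxcl1 only without control replicate 1 (unadjusted p = 0.0157, limma). Tnf, the founding inflammatory cytokine of the pathway, stood at 1083, 1012 and 825 normalized counts in control replicates 1, 2 and 3, against 2342, 1789 and 4982 for E3–E12 diet replicates 1, 2 and 3. The groups did not overlap, and the log2 fold change was 1.51 with a standard error of 0.62 (adjusted p = 0.999 from limma), between 1.08 and 1.82 with any single library left out. Cxcl1, a neutrophil chemoattractant, was near the bottom of the measured range, at 1.96 to 21.8 in controls and 28.4 to 43.9 in E3–E12 diet mice, and its log2 fold change of 2.07 was 1.30 without control replicate 2. In all, 6 of the 34 had all 3 E3–E12 diet libraries above the controls, against 2.99% of all genes, and 0 had all 3 below, against 2.91%. Beside Tnf and Cxcl1 the 6 were Bcl3 (a member of both lists), Ccl5, Icam1 and Gadd45b. The gap was narrow for Icam1, with 2166 normalized counts in the highest control and 2227 in the lowest E3–E12 diet library. It was narrow for Ccl5 too, at 18.5 and 19.0. The study lists Tnf and Gadd45b among its own genes called higher from these libraries, so their direction is not independent evidence. Gadd45b was listed at 0 in control replicate 2, without which its log2 fold change moved from 3.58 to 1.16, and Ccl5 reached 153 normalized counts in E3–E12 diet replicate 3 against at most 19.4 elsewhere, without which its log2 fold change was 1.19 in place of 2.17. Il1b, another cytokine of the list, overlapped between groups (log2 fold change 0.022, standard error 0.59).

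**Figure D4:**
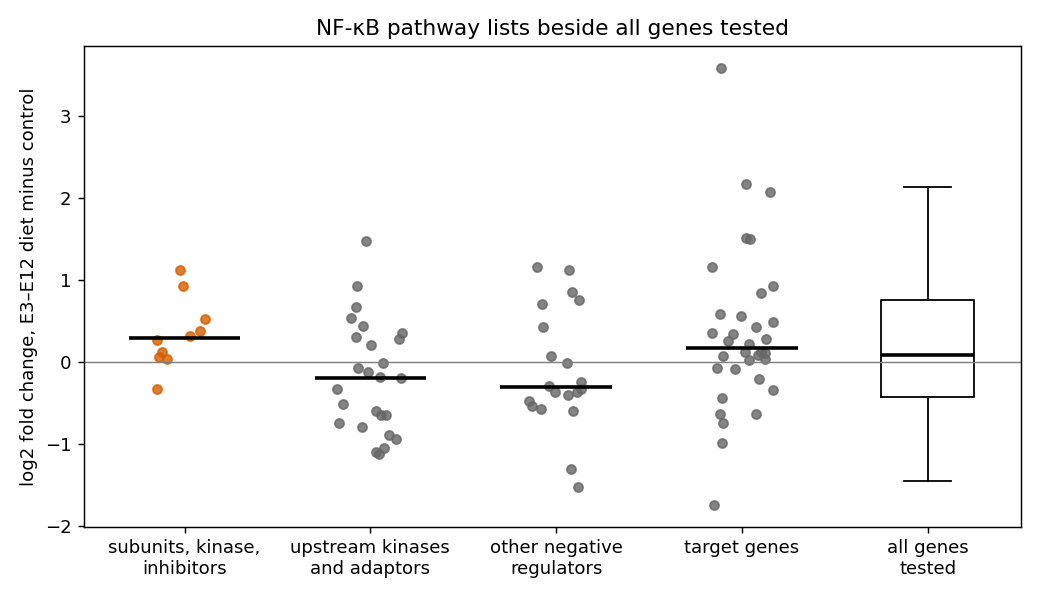
Log2 fold changes (E3–E12 diet minus control) of the tested genes of each NF-κB list, 1 point per gene with a bar at the list's median, beside a box for all 18007 genes tested (box from the 25th to the 75th percentile, whiskers from the 5th to the 95th). The medians are 0.29 for the subunits, kinase and inhibitors, -0.19 for upstream kinases and adaptors, -0.30 for other negative regulators and 0.18 for target genes.

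Nfkbia, Nfkbiz, Tnfaip3 and Tnf also respond to the handling of cells, so the levels of 12 immediate early and dissociation response genes were set beside them. Their summed level ran from 111010 to 358680 in controls and from 91312 to 217420 in E3–E12 diet mice, and 3 of the 12 were higher in E3–E12 diet mice in mean log2 level. Zfp36 had all 3 E3–E12 diet libraries below the controls (log2 fold change -1.39), and is on the study's own list of genes called lower from these libraries. It was the 1 gene of the 12 without overlap, where 2.91% of all genes tested were lower throughout. Atf3, also of the 12 and on the study's list of lower genes, overlapped between groups (log2 fold change -2.20, standard error 1.04). Control replicate 2 had the highest sum of the 12 genes and of the microglial markers, and the lowest Nfkbia. The part of cell handling in the Nfkbia and Tnf values was not tested.

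**Figure D5:**
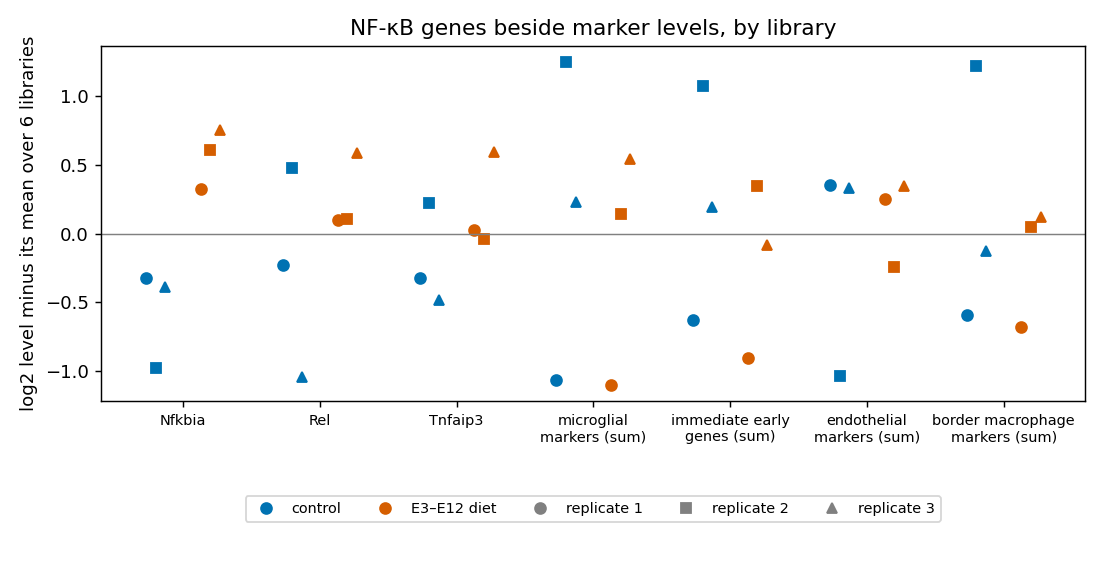
Log2 level of Nfkbia, Rel and Tnfaip3 and of 4 summed marker lists in each library, each minus its own mean over the 6 libraries (controls blue, E3–E12 diet orange, shape for the replicate number). Nfkbia separates the diets, whereas each marker sum overlaps between them and the microglial markers are lowest in replicate 1 of both groups.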

How the data were processed

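RNA-seq libraries of P15 microglia, 3 control and 3 E3–E12 diet, were compared. The authors deposited normalized counts per gene, a signal whose low values are not multiples of 1 step per library, so whole reads and depth could not be recovered and no count test was run. The name of the table mentions surrogate variables, and no source used here describes such a correction. The processing notes of the submitters name FastQC, STAR, featureCounts, DESeq2 and GRCm38, without versions. Annotation came from GENCODE M21 (GRCm38), and 26507 of 26789 identifiers had a symbol.

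The 18007 genes averaging 10 or more normalized counts were fitted as log2(value + 1) with limma 3.58.1 in R 4.3.3, by group alone, with Benjamini-Hochberg adjustment and a threshold of 0.1. A fold change on this scale understates that of low genes. Alternatives were quantile normalization, pseudocounts of 0.5 and 10, no filter or a mean of at least 50, a replicate block, an intensity trend, a residual component and each library left out. Scaling to microglial markers was added after seeing the data. All 10 genes were named, with the 5 smallest p-values of each wider list and Nfkbie. Genes named for not overlapping (Malt1, Tax1bp1, Icam1, Zfp36), for contrast (Sharpin, Il1b) or for being on the study's list (Atf3) were chosen after their values were seen. The genes and lists were chosen with earlier results of these data known. The libraries are separate litters per the methods.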

Additional observations from a re-analysis of the deposited data

How the results depend on the processing

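No NF-κB gene and no gene of the 3 wider lists passed the adjusted threshold in limma under any alternative run (0 in each). Over all genes the count was 0 except with a minimum mean of 50 normalized counts, where 1 gene, Prdm4, passed. The number of NF-κB genes with an unadjusted p under 0.05 was 0 except with the intensity trend and robust prior, where it was 1 (Nfkbia, unadjusted p = 0.0356 from limma). The median log2 fold change of the 10 genes (0.29) was 0.42 after quantile normalization, 0.59 after scaling to microglial markers, and between 0.16 and 0.56 with 1 library left out. The number higher in every E3–E12 diet library (1) was 0 after scaling to microglial markers, and between 1 and 5 with 1 library left out, 5 of them without control replicate 2. Fewer libraries make such separation easier for every gene. Over all genes tested the share was 2.99% with all 6 libraries, and 9.59%, 6.70% and 6.88% without control replicates 1, 2 and 3. Without E3–E12 diet replicate 1 it was 7.60%. Of 373 values of single genes under alternatives, 360 kept their direction and side of the threshold and 13 reversed, all with 1 library left out. The reversed log2 fold changes were -0.17, -0.11, -0.13 and -0.12 for Nfkb2 without control replicates 1 and 3 and E3–E12 diet replicates 2 and 3, -0.024, -0.14 and -0.17 for Nfkbiz without control replicates 1 and 3 and E3–E12 diet replicate 3, -0.22 and -0.057 for Relb without control replicate 2 and E3–E12 diet replicate 2, 0.062 for Nfkb1 without E3–E12 diet replicate 1, -0.040 for Ikbkb without control replicate 2, and -0.042 and -0.51 for Nfkbie without control replicate 1 and E3–E12 diet replicate 3. With 1 library left out, the log2 fold changes of these genes reached -0.57 for Nfkb1, 0.41 for Nfkb2, 0.64 for Relb, 0.54 for Nfkbiz, 0.21 for Ikbkb and 1.17 for Nfkbie at the other end. The cause was not tested. Same-numbered libraries deviated together with correlations of 0.26, 0.035 and 0.142 for replicates 1, 2 and 3. Control replicates 1 and 3, but not 2, correlated best with the E3–E12 diet library of their own number. The summed immediate early genes were highest in replicate 2 of both groups. The summed border-associated macrophage markers were highest in control replicate 2 and E3–E12 diet replicate 3. The methods describe no pairing, so the main fit used none. Whether the numbers mark a shared batch was not tested. With the replicate number as a block 0 NF-κB genes passed (smallest adjusted p = 0.98 over all genes from limma), and 468 genes had an unadjusted p under 0.05 in place of 327. Neither Tnf (unadjusted p = 0.0728, limma) nor Cxcl1 (unadjusted p = 0.0622, limma) reached that level under the block. Tnf also missed that level with no filter (unadjusted p = 0.0589, limma), Cxcl1 with a pseudocount of 10 (unadjusted p = 0.0728, limma) and with the intensity trend (unadjusted p = 0.144, limma), and both with scaling to microglial markers. Tnf kept it with quantile normalization (unadjusted p = 0.0278, limma) and with the intensity trend (unadjusted p = 0.0139, limma). Ccl5 reached it under the block (unadjusted p = 0.0392, limma). Gadd45b reached it with a pseudocount of 10 (unadjusted p = 0.042, limma) and with the residual component (unadjusted p = 0.0127, limma). Across the alternatives run, the genes that reached an unadjusted p under 0.05 numbered from 134 with scaling to microglial markers to 1423 with the residual component.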

Other observations

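Within a library, the ratio of Nfkbia to the precursor gene Nfkb1 was 1.60, 1.16 and 1.43 in control replicates 1, 2 and 3, against 5.52, 3.16 and 3.11 for E3–E12 diet replicates 1, 2 and 3. A single scaling factor per library cancels in this ratio, but an adjustment that differs between genes would not. The groups did not overlap in the ratio. The ratio of Nfkbia to Nfkb2 was 3.78, 1.07 and 3.34 in the controls and 6.84, 4.08 and 4.56 in E3–E12 diet mice, also without overlap. The ratios of Nfkbia to Rel, Rela and Relb overlapped between groups. These ratios were computed after the values of Nfkbia had been seen and were not tested.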
